A study of Mus musculus with 24 samples.

Results

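Scart1 and Scart2 are scavenger receptors of gamma-delta T cells, encoded in the mouse by *Cd163l1* (ENSMUSG00000025461) and *5830411N06Rik* (ENSMUSG00000054672), and were measured here in lymphoid progenitors that have not become T cells. The 2 genes were taken by their symbols from the 55487 genes listed, and both were found in each of 2 experiments. They were selected on their expression values in these same libraries, with the group differences already known, so those values are given as a description, with no P value. The cells were Cas9-LP, lymphoid progenitor (LP) lines made from mouse fetal liver, and every group lacks the B cell factor EBF1 (*Ebf1*-deficient) and carries Cas9 knocked in at *Rosa26*. All were transduced with a retrovirus for an sgRNA and the marker hNGFR, and hNGFR+CD45+ cells were sorted 5 days later. LPs were kept on OP9 stroma, and Phase 1 cells had 2 days of Notch stimulation on OP9-DLL4. Experiment 1 compared sgControl with sgCbfb in LPs and in Phase 1 cells. Experiment 2 compared sgControl, sgCbfb, sgCTCF and sgMed12 in LPs. Each of the 8 groups has 3 libraries, and each target had 3 pooled sgRNA vectors, with 2 for the luciferase control, so sorted cells are a mixture of edited alleles. The study's methods call the 3 libraries of a group independent biological replicates, so P values measure the spread between such replicates.

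Scart proteins belong to the scavenger receptor cysteine-rich (SRCR) family, whose extracellular domains resemble those of CD5, CD6 and CD163. In ruminants the related WC1 molecules sit on gamma-delta T cells and bind microbes, and in the mouse Scart receptors mark gamma-delta T cells, including those that make the cytokine encoded by *Il17a*. CBFβ is the partner that RUNX factors need for stable binding to DNA, CTCF organizes chromatin loops, and MED12 belongs to the kinase module of Mediator. Notch signaling starts the T cell program in progenitors.

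*Cd163l1* and *5830411N06Rik* lie next to each other and in the same direction on mouse chromosome 7. On GRCm38 (GENCODE M21), *Cd163l1* spans chr7:140218267-140231145 on the plus strand, and *5830411N06Rik* spans chr7:140247284-140300736 on the plus strand, with 16138 bases between them. No other annotated gene overlaps either body. None of the 75-base words in the transcripts of one gene occurs in the transcripts of the other or of any other annotated gene. The same held for 31-base words. So among annotated transcripts, reads of this length that match either gene exactly match 1 gene only. Introns, sequence between genes and the opposite strand were not searched. The 300 bases around each start (250 before and 50 after, RefSeq on GRCm38.p6) are shown because both genes were lower in sgCbfb cells and a RUNX motif is the first thing to look for there. Capitals mark matches of TGNGGT, a looser form of the RUNX motif, on either strand.
Cd163l1, chr7:140218017-140218316, plus strand: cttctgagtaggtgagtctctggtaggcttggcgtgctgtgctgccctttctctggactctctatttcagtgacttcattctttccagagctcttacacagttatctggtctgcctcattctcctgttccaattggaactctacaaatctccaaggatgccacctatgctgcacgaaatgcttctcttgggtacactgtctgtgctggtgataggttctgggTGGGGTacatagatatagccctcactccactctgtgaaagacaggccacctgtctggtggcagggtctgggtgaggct
5830411N06Rik, chr7:140247051-140247350, plus strand: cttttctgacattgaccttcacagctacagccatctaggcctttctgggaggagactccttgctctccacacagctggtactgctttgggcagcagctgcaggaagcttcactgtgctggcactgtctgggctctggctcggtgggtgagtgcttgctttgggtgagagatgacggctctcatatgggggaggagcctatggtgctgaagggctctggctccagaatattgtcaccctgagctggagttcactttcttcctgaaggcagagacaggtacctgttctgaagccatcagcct
The window of *Cd163l1* holds 1 match, which begins 28 bases before the start. The window of *5830411N06Rik* holds 0, as do the windows of its 2 other RefSeq starts. The *Cd163l1* match reads TGGGGT, with G at the open letter N, so it fits only the looser form of the motif. TGNGGT occurs in 45.8% of 32851 RefSeq promoter windows of this length. CANCTG, an E-box, occurs once in the *Cd163l1* window and at 2 positions in that of *5830411N06Rik*, beside 51.4% of all windows. TGGGAA (RBPJ), GAGGAA (ETS family), CTTTGA (TCF1/LEF1) and CCACNAGG (a CTCF core) occur in neither, beside 25.6%, 28.3%, 16% and 4.99% of all windows. These letters were searched on both strands and describe the windows, not sites of binding.

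QuantSeq reads the 3′ end of each mRNA, and values are in CPM, that is, reads scaled to the same total on genes in every library. Libraries of experiment 1 had 1363264 to 1743320 reads on genes and those of experiment 2 had 3354486 to 4326787, so that a gene with 0 reads could still lie at 1.72 to 2.20 CPM in the former and 0.693 to 0.894 CPM in the latter, counting error only. The experiments were scaled separately, and tests were made within each. The third sgControl library of Phase 1 cells and the second sgMed12 library stood apart from the others of their group (chi-square per degree of freedom over genes 8.75 and 10.7, and 9.43 and 17.6, against 2.46 to 5.01 for all other pairs). Genes counted as called had a Benjamini-Hochberg adjusted P value below 0.05 in limma and group means more than 2-fold apart. They also had more than 10 CPM on average in one of the groups. For the 2 Scart genes, which were chosen on these values, a call only states that they passed these limits. It is not a test of them, and the share of all genes given beside it is context. *Cbfb* itself fell with sgCbfb in LPs of experiment 1 (fitted log2 difference −1.09, adjusted P = 0.0055, limma) and of experiment 2 (−1.23, adjusted P = 4.3e-06, limma), and was 66.5 ± 19.2 CPM in sgControl and 53.9 ± 9.69 CPM in sgCbfb Phase 1 cells (SD, n = 3), which was not called. *Ctcf* with sgCTCF (−0.36) and *Med12* with sgMed12 (0.30, from 5.14 ± 1.26 to 7.01 ± 3.38 CPM) were not called either. An sgRNA changes the coding sequence and need not lower the mRNA, so these values do not measure how many cells were edited.

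By their markers the LPs were not gamma-delta T cells. *Trdc*, the constant segment of the delta chain, was at 338 ± 15.8 CPM in sgControl LPs of experiment 1 and at 370 ± 45.9 CPM in those of experiment 2 (SD, n = 3), but *Cd3e*, which every surface T cell receptor needs, had 0 reads in all 12 libraries of experiment 2 and a mean of 0.617 CPM in sgControl LPs of experiment 1. *Il17a* was listed at 0 in every group. The gamma-delta marker list held 5 genes, *Trdc* and the CD3 chain genes *Cd3e*, *Cd3d*, *Cd3g* and *Cd247*, which alpha-beta T cells share. Their sum was 335 to 365 CPM in sgControl LPs of experiment 1 and 330 to 417 CPM in those of experiment 2, nearly all *Trdc*. In sgControl Phase 1 cells the sum was 483 to 534 CPM. There *Trdc* was at 398, *Cd3e* at 6.57, *Cd3g* at 44.1, *Cd3d* at 18.6 and *Cd247* at 40.7 CPM on average. In sgCbfb Phase 1 cells the sum was 160 to 215 CPM. The 8 lymphoid progenitor markers summed to 1080 to 2231 CPM over all libraries. The 6 alpha-beta T cell markers summed to 60.6 to 75.4 CPM in sgControl LPs and 15.8 to 22.0 CPM in sgCbfb LPs of experiment 2, with *Cd8b1* at 0 in both. In experiment 1 they summed to 63.7 to 73.7 CPM in sgControl LPs, to 652 to 764 CPM in sgControl Phase 1 cells and to 625 to 667 CPM in sgCbfb Phase 1 cells, most of it *Trbc2*. Myeloid markers (10 genes) summed to 114 to 140 CPM in sgControl LPs and 223 to 241 CPM in sgCbfb LPs of experiment 1, and to 114 to 124 against 143 to 216 CPM in experiment 2, with *Elane* and *Ctsg* at 0 in these groups. In Phase 1 cells they summed to 62.1 to 77.0 CPM with sgControl and 179 to 202 CPM with sgCbfb. Stromal markers of OP9 (10 genes) summed to 2.14 to 56.8 CPM. The part of these cells in the results below was not tested. In bulk RNA, fewer cells that express a gene and less RNA per cell cannot be told apart.

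Both Scart genes were transcribed in LPs without Notch stimulation and were much lower when *Cbfb* was targeted. In experiment 1, *5830411N06Rik* was at 240, 199 and 190 CPM in the 3 sgControl LP libraries and at 27.5, 18.4 and 21.4 CPM in the sgCbfb LP libraries. *Cd163l1* was at 28.9, 14.2 and 21.8 CPM in sgControl LPs and at 0.705, 2.87 and 0.713 CPM in sgCbfb LPs. The groups did not overlap for either gene. The share of all genes that separate in this way was not counted. Lack of overlap, here and below, only describes these 2 chosen genes. *5830411N06Rik* was 9.36-fold lower (209.9 ± 26.7 to 22.4 ± 4.66 CPM, SD, n = 3), and its fitted difference on the log2(CPM + 1) scale was −3.18 (SE 0.18). *Cd163l1* was 15.2-fold lower (21.7 ± 7.34 to 1.43 ± 1.25 CPM, SD, n = 3), with a fitted log2 difference of −3.28 (SE 0.44). The sgCbfb libraries held 7 reads of *Cd163l1* in all, and pooled reads gave a 14.2-fold lower level, with a 95% exact counting interval from 6.66 to 36.2. Both genes passed the limits for a call of lower, which is a description because they were chosen on these values. Of the 13239 genes tested, 0.597% were called lower and 1.1% higher, 1.69% in all.

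**Figure D1:**
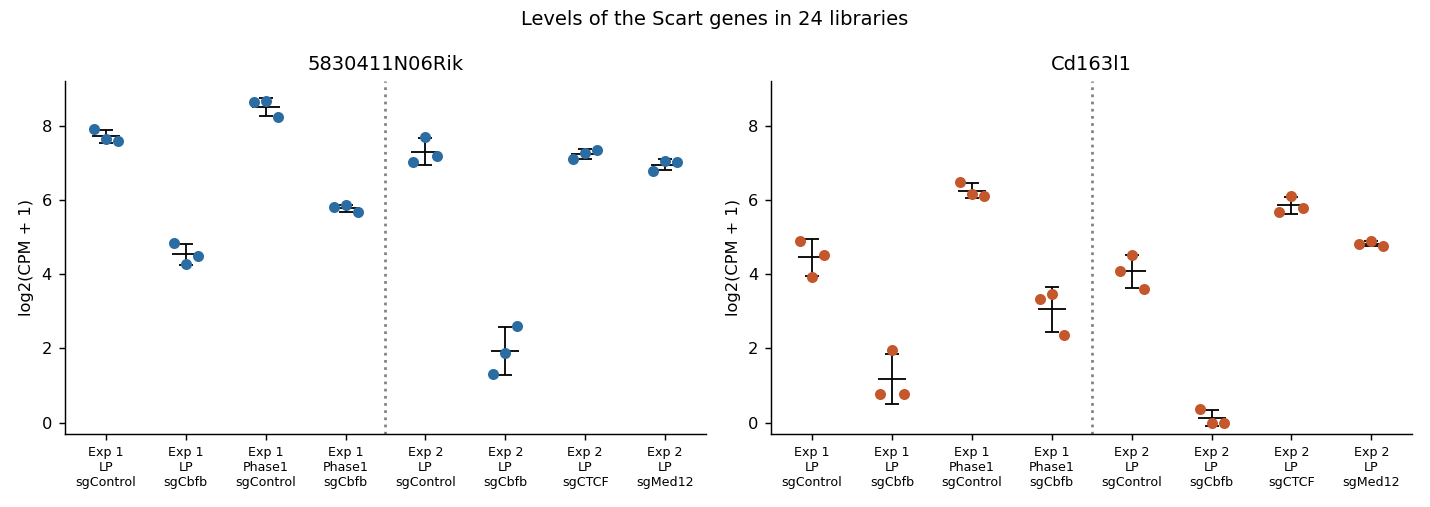
Levels of *5830411N06Rik* (left) and *Cd163l1* (right) on the log2(CPM + 1) scale in each of the 24 libraries, by group, with the mean and SD (bars) of 3 libraries; the dotted line parts the experiments, which were scaled separately. Every sgCbfb library lies below every sgControl library of its stage and experiment for both genes, and sgCTCF libraries are above sgControl for *Cd163l1* but among them for *5830411N06Rik*.

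The loss was larger in experiment 2. *5830411N06Rik* was at 128, 207 and 143 CPM in sgControl LPs and at 1.49, 2.68 and 5.04 CPM in sgCbfb LPs, which is 5 to 20 reads a library. *Cd163l1* was at 16.1, 21.9 and 11.2 CPM in sgControl LPs, and its sgCbfb libraries held 1 read in all. *5830411N06Rik* was 52.0-fold lower (159.5 ± 42.1 to 3.07 ± 1.81 CPM, SD, n = 3), with a fitted log2 difference of −5.36 (SE 0.21). *Cd163l1* was at least 18.3-fold lower, set against the floor of 3 reads per library, and its fitted log2 difference was −3.95 (SE 0.25), which depends on the pseudocount. Both were called lower, beside 1.65% of the 13177 genes tested called lower and 2.67% higher, 4.33% in all. The difference in size between the experiments was not tested.

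Notch stimulation went with higher levels of both genes, more so for *Cd163l1*. In sgControl cells *5830411N06Rik* reached 393, 401 and 300 CPM in Phase 1, and *Cd163l1* reached 88.2, 69.7 and 68.2 CPM. All Phase 1 libraries were above all LP libraries for both genes. *5830411N06Rik* was 1.74-fold higher (364.8 ± 56.3 CPM in Phase 1, SD, n = 3), with a fitted log2 difference of 0.79 (SE 0.18), which is under the 2-fold limit. *Cd163l1* was 3.48-fold higher (75.4 ± 11.2 CPM, SD, n = 3), with a fitted log2 difference of 1.80 (SE 0.44), and was called higher, beside 1.65% of the genes tested called higher and 1.74% lower, 3.39% in all. That call was lost without the second sgControl LP library, which had the lowest *Cd163l1* value of its group (log2 difference 1.54). Without the third sgControl Phase 1 library, which stood apart, the fitted log2 differences were 0.92 and 1.86.

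In Phase 1 cells the levels with sgCbfb stayed below those of unstimulated sgControl LPs. *5830411N06Rik* was at 54.5, 57.2 and 50.1 CPM in sgCbfb Phase 1 cells, 6.77-fold lower than in sgControl Phase 1 cells (fitted log2 difference −2.73, SE 0.18). *Cd163l1* was at 9.08, 10.1 and 4.13 CPM, 9.72-fold lower (fitted log2 difference −3.19, SE 0.44). Both were called lower, beside 1.56% of the genes tested called lower and 1.96% higher, 3.52% in all. Without the third sgControl library the differences were −2.86 and −3.26. Within sgCbfb cells, Phase 1 was still above LP for both genes with no overlap. *5830411N06Rik* was 2.40-fold higher there (fitted log2 difference 1.25, SE 0.18) and called, beside 0.74% of the genes called higher and 0.453% lower, 1.19% in all. *Cd163l1* was 5.43-fold higher by means and 4.99-fold by pooled reads (95% interval 2.20 to 13.3, 7 reads in the sgCbfb LPs), with a mean under 10 CPM, so it could not be called. The sgCbfb effect in Phase 1 minus that in LPs was 0.46 (SE 0.25) for *5830411N06Rik* and 0.09 (SE 0.62) for *Cd163l1*, and neither was called, beside 1.19% of the genes (0.597% negative and 0.589% positive). The order in experiment 1 was the same for both genes: sgControl Phase 1, sgControl LP, sgCbfb Phase 1 and sgCbfb LP, with no overlap between neighbours in that order.

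**Figure D2:**
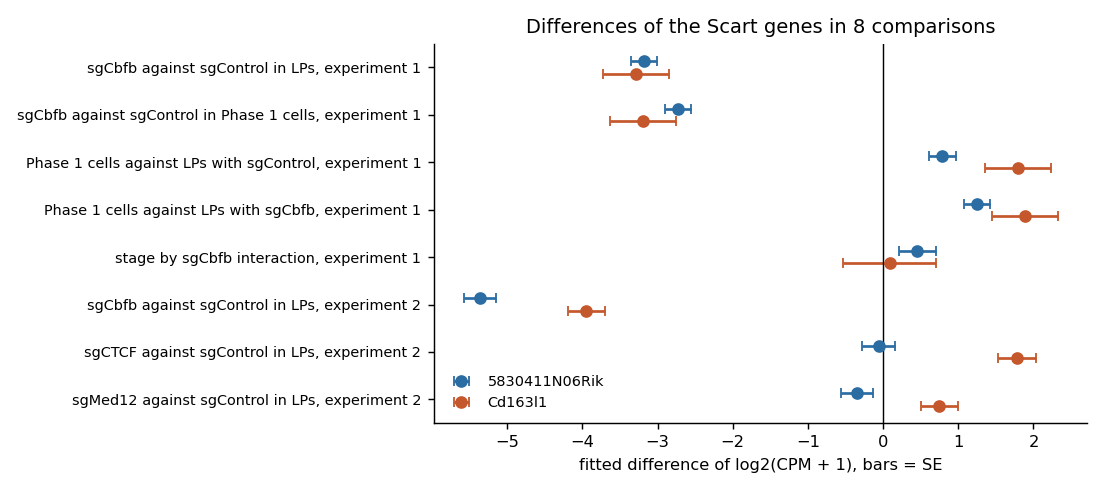
Fitted differences of log2(CPM + 1) for both genes in the 8 comparisons, with SE as bars. With sgCTCF *Cd163l1* is at 1.78 and *5830411N06Rik* at −0.06, while in the 3 comparisons of sgCbfb with sgControl both lie below −2.7.

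The genes parted when *Ctcf* was targeted. *Cd163l1* was at 49.9, 67.7 and 54.3 CPM in sgCTCF LPs, all above its sgControl libraries. *5830411N06Rik* was at 136, 152 and 161 CPM, within the range of its sgControl libraries. *Cd163l1* was 3.5-fold higher (57.3 ± 9.24 CPM, SD, n = 3; fitted log2 difference 1.78, SE 0.25) and called higher, beside 1.81% of the genes tested called higher and 0.622% lower, 2.43% in all. The comparisons of sgCbfb, sgCTCF and sgMed12 share their sgControl libraries. *5830411N06Rik* was at 0.94 times its sgControl level (149.9 ± 12.6 CPM; fitted log2 difference −0.06, SE 0.21) and was not called.

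With sgMed12 neither gene was called. *Cd163l1* was at 27.1, 28.5 and 26.1 CPM, above all sgControl libraries, and 1.66-fold higher by means (fitted log2 difference 0.75, SE 0.25). *5830411N06Rik* was at 108, 131 and 130 CPM, a range that overlaps sgControl, with a fitted log2 difference of −0.35 (SE 0.21). The background was 0.668% of genes called higher and 0.364% called lower, 1.03% in all. Without the second sgMed12 library, which stood apart, the differences were 0.71 and −0.40. In experiment 2 the order for *Cd163l1* was sgCTCF, sgMed12, sgControl and sgCbfb with no overlaps. For *5830411N06Rik* it was sgControl, sgCTCF, sgMed12 and sgCbfb, where sgControl overlapped with sgCTCF and with sgMed12.

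The balance between the 2 genes showed the same split. Reads of *Cd163l1* per 100 of *5830411N06Rik* compare groups, not the abundance of the 2 mRNAs. In sgControl LPs the pooled value was 10.3% in experiment 1 and 10.2% in experiment 2. It was 20.5% in sgControl Phase 1 cells and 14.2% in sgCbfb Phase 1 cells. In experiment 2 it was 22.2% with sgMed12 and 37.9% with sgCTCF. By library it ran from 7.82 to 12.6% with sgControl, 20.1 to 25.1% with sgMed12 and 33.7 to 44.4% with sgCTCF, with no overlap among these 3 groups. In sgCbfb LPs the values of 6.93% and 2.86% rest on 7 reads and 1 read of *Cd163l1*.

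**Figure D3:**
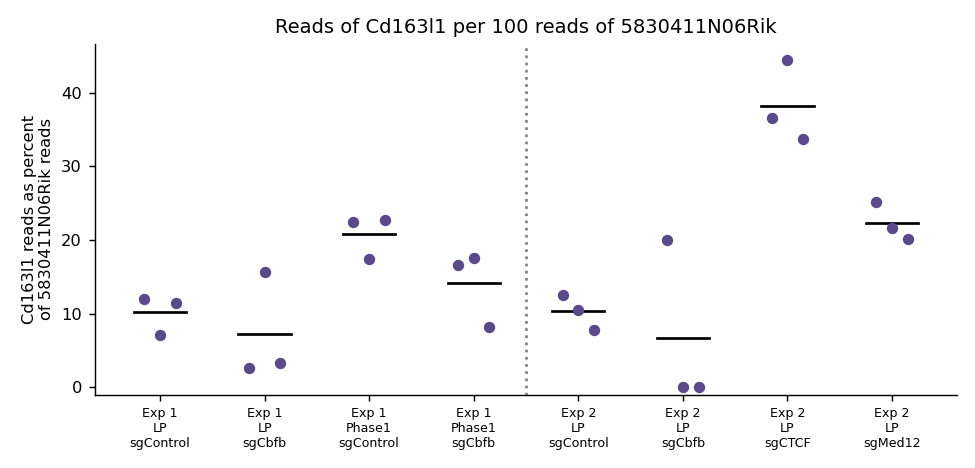
Reads of *Cd163l1* as a percent of reads of *5830411N06Rik* in each library by group, with the mean of 3 libraries as a line. The sgCTCF libraries lie at 33.7 to 44.4% and the sgControl LPs of the same experiment at 7.82 to 12.6%.

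Genes around the pair were looked at because they were not used to choose it. Within 500 kb of either gene 54 others are annotated, 27 on each side, and 25 of them are olfactory receptor genes or pseudogenes. None of the 27 downstream genes passed the filter of 1 CPM in 3 libraries in either experiment, and 9 of the 27 upstream genes did in at least 1.

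With sgCTCF, some upstream neighbours were higher as well. *Olfr523*, an olfactory receptor gene 39.5 kb upstream of *Cd163l1*, was at 14.8, 21.4 and 11.8 CPM with sgCTCF and at 0.791, 0.590 and 0.730 CPM with sgControl. Pooled reads were 183 against 8, a 22.2-fold ratio with a 95% counting interval from 11 to 52.1. *Olfr523* passed the filter on low values only through the sgCTCF libraries, so its difference is a description with no P value. *Paox*, which encodes a polyamine oxidase and lies 81.0 kb upstream, rose from 57.0 ± 8.5 to 125.6 ± 24.9 CPM (SD, n = 3; log2 difference 1.12, adjusted P = 0.00011, limma). *Sprn*, which encodes a prion-like protein, lies between them. It was at 3.22, 3.62 and 5.32 CPM with sgCTCF and had 0 reads in the 9 other libraries of that experiment, so it was at least 4.57-fold higher than the sgControl floor of 3 reads per library. It too passed the filter only through the sgCTCF libraries, and is described with no P value. *Mtg1* (−0.14), *Echs1* (−0.04), *Tubgcp2* (0.05), *Zfp511* (0.15) and *Adam8* (0.90), which lie among or beyond these, had adjusted P values above the threshold.

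**Figure D4:**
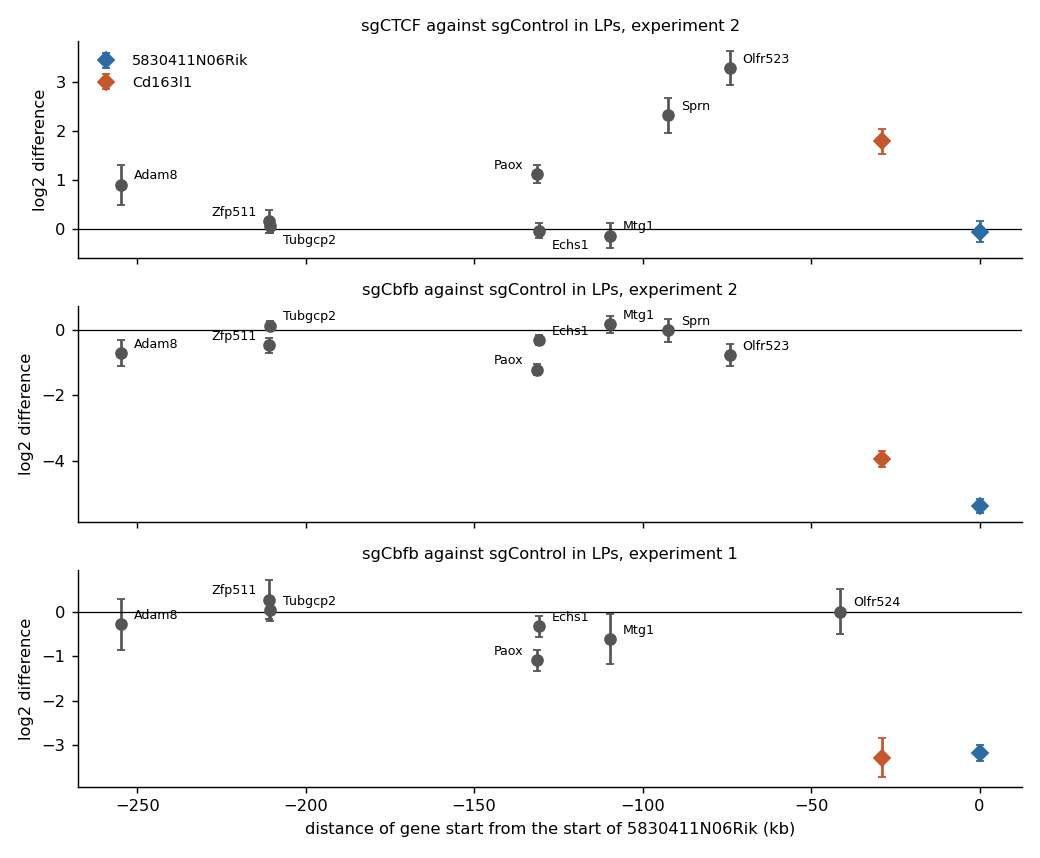
Fitted log2 difference (SE as bars) of the neighbours tested and of both Scart genes against the distance of each gene's start from that of *5830411N06Rik*, in LPs with sgCTCF (top), with sgCbfb in experiment 2 (middle) and with sgCbfb in experiment 1 (bottom). With sgCTCF, *Paox* (1.12), *Sprn* (2.31), *Olfr523* (3.28) and *Cd163l1* (1.78) are above 0 while *Mtg1* and *Echs1* among them are at −0.14 and −0.04; with sgCbfb no neighbour falls as far as the Scart genes.

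With sgCbfb, *Paox* was the neighbour that fell in LPs of both experiments. It went from 60.2 ± 5.60 to 27.9 ± 6.06 CPM in experiment 1 (SD, n = 3; log2 difference −1.10, adjusted P = 0.0097, limma), 1 of 7 neighbours tested beside 1.69% of all genes called. In experiment 2 it went from 57.0 ± 8.5 to 24.1 ± 3.45 CPM (log2 difference −1.21, adjusted P = 1.5e-05, limma), 1 of 8 beside 4.33%. In experiment 1 the call was lost without the first sgCbfb LP library or without the second sgControl LP library (log2 differences from −1.22 to −0.92 over libraries left out). *Olfr524*, the nearest neighbour, 12.3 kb upstream of *Cd163l1*, was at 5.65, 7.74 and 11 CPM in sgControl Phase 1 cells of experiment 1. It had 1 read in the 3 sgCbfb Phase 1 libraries and 0 in LPs of that experiment. Pooled reads in Phase 1 were 35 against 1 (39.0-fold, 95% interval 6.56 to 1586), and the level was at least 4.22-fold above the floor in sgControl LPs. In LPs of experiment 2, which was sequenced deeper, it had 6 reads with sgControl, 0 with sgCbfb, 9 with sgCTCF and 4 with sgMed12. Its mean was under 10 CPM in every group, so it could not be called. *Adam8*, a membrane metalloprotease gene further upstream, was at 13.4, 14.2 and 5.87 CPM in sgControl and at 1.30, 2.51 and 0.589 CPM in sgCbfb Phase 1 cells. It was called lower by limma (log2 difference −2.29, adjusted P = 0.018), but not by edgeR, and not without the first or the third sgCbfb or the first or the second sgControl library of that stage (−2.66 to −2.01 over libraries left out).

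Few other genes of the SRCR family were expressed. Of 27 other family genes, 6 passed the filter in each experiment, while *Cd163*, a receptor for haemoglobin on macrophages, was listed at 0 throughout. With sgCbfb none of the 6 was called in LPs of experiment 1, beside 1.69% of all genes (median log2 difference 0.29 against 0.00 for all genes). *Lgals3bp*, a secreted glycoprotein gene, was at 23.7 CPM in sgControl and 22.3 CPM in sgCbfb LPs of experiment 1 (log2 difference −0.09). In LPs of experiment 2 it rose from 20.4 ± 1.15 to 89.2 ± 45.9 CPM (SD, n = 3; log2 difference 1.95, adjusted P = 1.8e-06, limma), beside 2.67% of all genes called higher. It was lower in Phase 1 cells, at 20.7 against 53.6 CPM (−1.37, adjusted P = 0.0072, limma), beside 1.56% of all genes called lower. The latter call was lost without the third sgCbfb Phase 1 library (−1.59 to −1.06 over libraries left out). *Loxl2*, a lysyl oxidase gene, rose with sgCTCF from 2.54 to 22.8 CPM (log2 difference 2.74, adjusted P = 2.1e-05, limma), 1 of 6 beside 1.81% of all genes called higher. *Cd5* was at 2.25 CPM in sgControl and 9.97 CPM in sgCbfb LPs of experiment 1, and at 1.96 and 8.23 CPM in experiment 2 (log2 differences 1.56 and 1.65, adjusted P = 0.19 and 0.0031, limma), and was not called in either, with all these means under 10 CPM.

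Of 34 genes of the gamma-delta T cell program, 30 are in the tables and 20 passed the filter in experiment 1 and 21 in experiment 2. With sgCbfb 3 fell in LPs of experiment 1 and 3 in experiment 2, *Il18r1*, *Il2rb* and *Trdc* in both, beside 0.597% and 1.65% of all genes tested called lower. *Il2rb*, a subunit of the receptors for interleukins 2 and 15, fell most (log2 difference −3.27, adjusted P = 0.0029, and −5.0, adjusted P = 1.1e-13, limma). Its call in experiment 1 was lost with a pseudocount of 0.1 and without moderated variances (−3.74 to −2.35 over the other settings). *Il18r1*, a cytokine receptor gene, differed by −2.33 (adjusted P = 0.00013, limma) and −3.53 (adjusted P = 1.1e-13, limma), and *Trdc* by −1.42 (adjusted P = 8.2e-07, limma) and −2.97 (adjusted P = 1.4e-13, limma). *Trgc1*, a constant segment of the gamma chain, went the other way in LPs of both experiments (1.47, adjusted P = 0.0008, and 1.02, adjusted P = 5.3e-07, limma), and *Etv5* rose in experiment 2 (1.62, adjusted P = 0.0013, limma). The *Trgc1* call of experiment 2 was lost without the second sgCbfb or the second sgControl library (0.91 to 1.10 over libraries left out). Gamma constant segments are close copies of each other, so reads may be split among them. In Phase 1 cells 7 of 20 fell with sgCbfb and none rose, beside 1.56% of all genes called lower and 1.96% higher. *Zbtb16*, the PLZF factor of innate-like T cells, fell by 3.87 on the log2 scale (adjusted P = 4.8e-05, limma). The median over the list was −0.16, −0.01 and −0.32 in LPs of experiments 1 and 2 and in Phase 1 cells, against 0.00, −0.01 and 0.06 for all genes. With Notch 3 of 20 rose in sgControl cells, beside 1.65% of all genes: *Ccr2* (1.33, adjusted P = 0.007), *Zbtb16* (2.08, adjusted P = 0.018) and *Trgc4* (1.49, adjusted P = 6.6e-06, limma). The *Zbtb16* call was lost without the first or the second LP library or the third Phase 1 library of sgControl (1.94 to 2.25 over libraries left out). With sgCTCF 1 of 21 rose, beside 1.81% of all genes, the chemokine receptor gene *Ccr2* (2.46, adjusted P = 3.1e-06, limma), with a list median of 0.62 against −0.02 for all genes, and with sgMed12 1 of 21 fell, beside 0.364% of all genes, *Il2rb* (−0.99, adjusted P = 0.02, limma), a call that was lost without the second or the third sgControl or the first or the second sgMed12 library (−1.21 to −0.78 over libraries left out).

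Of the 20 genes of the early T and Notch response, 19 passed the filter in experiment 1 and 16 in experiment 2. With Notch 12 of 19 rose in sgControl and 6 in sgCbfb cells, and none fell, beside 1.65% and 0.74% of all genes called higher. Both counts include *Dtx1*, and the 12 also include *Cd3g*. These genes passed the filter on low values only through the Phase 1 libraries, so the counts are a description. Direct Notch targets were among the genes that rose. *Nrarp* rose by 3.36 in sgControl and 5.57 in sgCbfb cells on the log2 scale (adjusted P = 3.6e-05 and 6.9e-08, limma). *Dtx1* was at 0.393 CPM in sgControl LPs and 114 CPM in sgControl Phase 1 cells. In sgCbfb cells it was at 0.711 CPM in LPs and 42.8 CPM in Phase 1. *Dtx1* passed the filter on low values only through the Phase 1 libraries, so it is described with no P value. With sgCbfb, 2 fell and 3 rose in LPs of experiment 1, beside 0.597% and 1.1% of all genes. *Lck*, the kinase of T cell receptor signaling, differed by −1.86 (adjusted P = 1.5e-05, limma) and *Bcl11b*, the T lineage factor, by −2.49 (adjusted P = 1.4e-06, limma), while *Rag1*, *Rag2* and *Il2ra* rose. In experiment 2 both fell again (−3.76 and −3.89, adjusted P = 4.4e-16 and 2.3e-12, limma) with *Thy1*, and 4 rose, beside 1.65% and 2.67% of all genes. In Phase 1 cells 8 of 19 fell with sgCbfb and 2 rose, beside 1.56% and 1.96% of all genes. The list median there was −1.43 against 0.06 for all genes. With sgCTCF *Tcf7* and *Hes1* rose and with sgMed12 *Hes1* did, of 16 tested, beside 1.81% and 0.668% of all genes called higher.

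Both *Lck* and *Bcl11b* were also among the genes whose pattern was most like that of the pair. Over 24 libraries, each set against the sgControl LPs of its experiment, the highest Pearson r with *5830411N06Rik* among 9289 genes were those of *Lck* (0.98), *Trdc* (0.97), the membrane-cytoskeleton linker gene *Ezr* (0.95), the protease gene *Bace1* (0.95) and *Bcl11b* (0.94). With *Cd163l1* they were those of *Cd7*, a T and NK cell surface protein (0.95), *Hemgn* (0.94), *Ezr* (0.94), *Bcl11b* (0.93) and *Bace1* (0.93). The r between the 2 Scart genes was 0.92. These points share groups, controls and library depth, and r describes them with no test. *Trdc* ranked lower by Spearman's rho (0.78). *Bcl11b* rose more with Notch than either Scart gene (fitted log2 difference 2.50 in sgControl cells). With sgCTCF none of the 7 genes alike was called, and *Cd7* had the largest log2 difference among them (0.92).

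**Figure D5:**
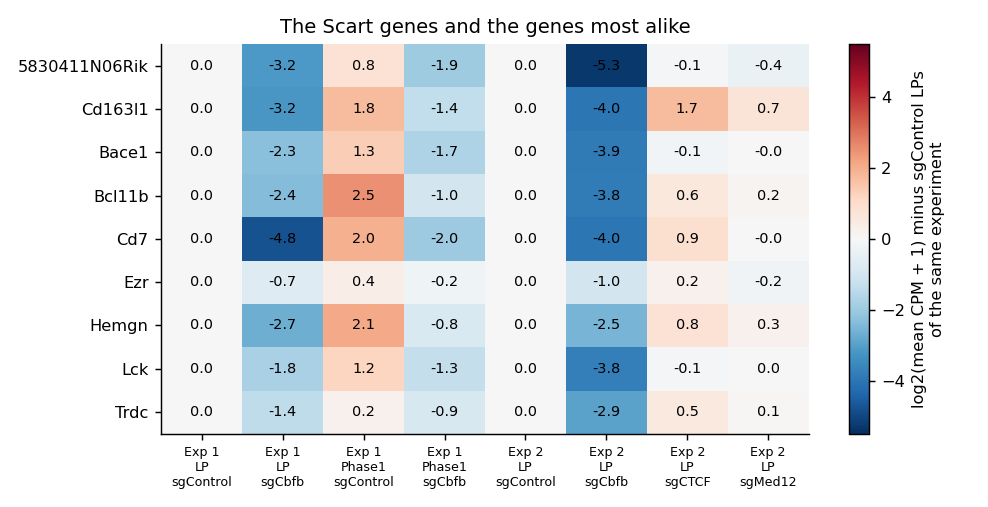
Group mean as log2(mean CPM + 1) minus that of sgControl LPs of the same experiment, for the 2 Scart genes and the 7 genes most like them; red is higher and blue lower. All 9 are below 0 in every sgCbfb group, and in sgCTCF cells *Cd163l1* has the largest positive value of the 9 (1.75).

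With sgCbfb against sgControl, *Runx1* rose in LPs of experiment 1, in Phase 1 cells and in LPs of experiment 2. The log2 differences were 1.02, 1.11 and 1.22 (adjusted P = 1.3e-05, 2.1e-06 and 1.2e-09, limma). The first of these calls was lost without the first sgCbfb, the second sgControl or the third sgControl LP library, where the ratio of means fell under 2-fold (0.93 to 1.14). *Runx3* was not called in any comparison (−0.29 to 0.51). *Runx2* rose with sgCbfb in Phase 1 cells (1.62, adjusted P = 0.00013, limma). With Notch in sgControl cells *Runx2* was called lower (−1.11). That call was lost with only the groups compared, and without the first LP or the third Phase 1 library of sgControl.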

How the data were processed

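Gene expression was measured by QuantSeq 3′ mRNA sequencing (75-base single reads) in 24 libraries, which were grouped by their labels. Per the sources, the authors trimmed reads with fastp and mapped them to mm10 with STAR. The deposited values are named TPM, but each library's values are whole multiples of 1 read whatever the gene's length (99.9 to 100.0% of values within 0.15 read), so the authors' values are CPM. A line without a gene identifier was left out (at most 7.3e-05% of a library), and the authors' mean of the sgControl libraries of experiment 2 was not used. Genes with at least 1 CPM in 3 libraries of an experiment were tested on log2(CPM + 1) with limma 3.58.1 in R 4.3.3 (trended moderated variances, all 4 groups in one fit, Benjamini-Hochberg). Called genes passed an adjusted P value of 0.05, a log2 ratio of means of 1 and a mean of 10 CPM in either group. The stage by sgCbfb interaction needed the adjusted P value and a mean of 10 CPM in any group. edgeR 4.0.16 on recovered reads, 2 pseudocounts (0.1 and 5), filters, scaling and each library left out were alternatives, and the same settings were run for the other named genes after the data were seen. On recovered reads edgeR called 269 genes in place of limma's 224 for sgCbfb in LPs of experiment 1 and 572 in place of 570 in experiment 2. Motif letters were chosen after the data were seen. The fits were tested on simulated data. Intervals are exact binomial and cover counting error only. The members, lists and the rule for named genes were chosen with earlier results of these data known. The rule names the 2 members, the targeted and RUNX genes, called genes (at most 8) of each list and of neighbours within 500 kb, the nearest tested neighbours, and the 5 genes of highest r with each member.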

Additional observations from a re-analysis of the deposited data

Results flagged for a closer look

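In experiment 1 the sgCbfb effect differed between Phase 1 cells and LPs for 12 of the genes in the lists and the RUNX genes, by limma's interaction term (adjusted P under 0.05 and a mean over 10 CPM in a group), and for neither Scart gene. Of all 13239 genes tested, 157 (1.19%) were called. The lists were chosen with earlier results of these data known, so the count of 12 is a description. *Cd3g* passed the filter on low values only through the Phase 1 libraries. The effect in Phase 1 minus that in LPs, on the log2 scale, was −4.61 for *Cd3g*, −4.38 for *Il2ra*, −3.59 for *Cd247*, −3.58 for *Tcf7*, −1.85 for *Gata3* and −0.95 for *Thy1*. It was −1.37 for *Trgc4* and −2.28 for *Kit*. It was 2.72 for *Ly6d*, 1.77 for *Adgre1*, 1.73 for *Runx2* and 1.69 for *Flt3*. The *Thy1*, *Cd247* and *Flt3* calls were each lost when some single libraries were left out, in 5, 3 and 8 of 12 cases. Without moderated variances those calls and the calls of *Tcf7*, *Ly6d*, *Runx2* and *Trgc4* were lost. *Cd3e* (−3.53, adjusted P = 0.019, limma) passed the P value but not the limit on the mean.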

How the results depend on the processing

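For the 2 Scart genes and their ratio, 159 results under another setting and 208 with 1 library left out kept direction and call, or moved by less than the spread between libraries where no call was made, and 7 and 8 did not. The rise of *Cd163l1* with Notch in sgControl cells was not called with a pseudocount of 0.1 (log2 difference 1.84) or without moderated variances (1.80), and ran from 1.54 to 2.02 over libraries left out. The cause was not tested. Differences near 0 changed sign: the stage by sgCbfb interaction of *Cd163l1* was −0.65 with a pseudocount of 5 and ran from −0.14 to 0.48 over libraries left out, and the sgCTCF difference of *5830411N06Rik* ran from −0.20 to 0.14. The log2 ratio of *Cd163l1* to *5830411N06Rik* moved in sgCbfb LPs alone, where few reads are left: −2.10 with a pseudocount of 5 in experiment 1 (−3.37 with 1), and in experiment 2 −4.16 with 0.1, −0.64 with 5 and −5.13 from pooled reads (−1.80 with 1). Of 144 calls of other named genes, 98 held under every setting and library left out. Counts over all genes changed by more than 1.5 times without moderated variances (sgCbfb in LPs of experiment 1 147 for 224, Notch in sgCbfb cells 105 for 158, interaction 62 for 157, sgMed12 21 for 136), with no filter (sgMed12 54) and with only the groups compared (Notch in sgCbfb cells 245, sgMed12 57). Same-numbered libraries of different groups had r from −0.13 to 0.22, with medians of 0.04 in experiment 1 and 0.07 in experiment 2. For different numbers the medians were −0.02 and −0.03. Numbers may therefore pair libraries weakly, and the main fits did not use them. With the replicate number as a block, no Scart call changed (*5830411N06Rik* with sgCbfb in LPs −3.18 and −5.36). That setting called 235 genes in LPs of experiment 1 in place of 224. Depth limits *Cd163l1* in sgCbfb LPs and neighbours under 10 CPM.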
